A study of Homo sapiens with 61 samples.

Results

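The 9 genes SHANK2, PTPRN2, TCERG1L, MGMT, CACNA1B, OCA2, RIMBP2, ADAMTS2 and ADAMTS17 were chosen by the rise after UV, in WT cells, of the length of their bodies under H3K4me3 peaks, out of 17699 protein-coding genes with a gene body. A gene body left out the first 2 kb after the start site and went on to the end of the gene, on hg38 with GENCODE 44. Of the 12402 bodies covered in at least 3 libraries, these 9 held ranks between 3 (SHANK2) and 22 (ADAMTS17) for the WT change in kb, and 13 other genes lay among them. The last of the 9, ADAMTS17, had a change of 34.2 kb, next to 34.5 kb for TAFA5 one rank above and 32.8 kb for TMEM132C one rank below. The WT values of H3K4me3 in these bodies are therefore a description, without a test. Measurements that the WT change does not use are the H3K4me3 lists of cells without ASH1L and all XPC lists. Rank alone did not pick the 9, since 13 others lay among them. The pick was also made with earlier results of these data known.

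The cells were U2OS, a human osteosarcoma line. They were WT, or ASH1L-/- with both CRISPR deletions in the ASH1L gene, a line grown from an isolated colony, so that a difference between genotypes cannot be told apart from one between clones. Chromatin was taken from cells without UV, and 1 h or 3 h after UV-C light at 20 J/m2. There were 18 H3K4me3 peak lists, 3 for each genotype and time, and 19 XPC lists, 3 for each genotype and time except 4 for WT cells without UV. XPC was called against precipitates from XPC-/- cells, for which no list was analysed here.

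H3K4me3, trimethylation of lysine 4 of histone H3, is laid down around the start sites of active genes, and broad signal deep inside long genes is not its usual place. ASH1L is a histone methyltransferase of the trithorax group. XPC is the sensor that finds helix-distorting lesions, such as the pyrimidine dimers made by UV-C, at the start of global genome nucleotide excision repair. The genes themselves have varied tasks, some of them related. SHANK2 is a scaffold of the postsynaptic density and RIMBP2 a protein of the presynaptic active zone, CACNA1B is the pore of N-type calcium channels, and PTPRN2 is a receptor-type phosphatase of dense-core vesicles. MGMT removes alkyl groups from guanine, OCA2 is a melanosomal membrane protein needed for pigment, ADAMTS2 is the procollagen N-proteinase, and ADAMTS17 is a secreted metalloprotease.

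The genes also shared length and position, neither of them separate from a choice by WT change in kb. Their bodies measured from 217 kb (TCERG1L) to 1047 kb (PTPRN2), and between 93.5% and 99.6% of all gene bodies were shorter. A long body can gain more kb than a short one, and per length the genes ranked lower, from 161 (TCERG1L, a gain of 25.3% of its body) to 1649 (PTPRN2, 5.65%). By position, 1437 of all 12402 bodies tested lay within 5 Mb of a chromosome end. Of bodies of at least 200 kb, 76 lay that near and 1194 farther, and 65.8% and 18.4% of them rose in WT cells. Among the 9 genes, 7 lay within 5 Mb of the end of a long chromosome arm. CACNA1B (chr9:137877782-138124624) was 0.270 Mb from it, PTPRN2 (chr7:157539056-158587823) 0.758 Mb, ADAMTS17 (chr15:99971437-100342005) 1.65 Mb and ADAMTS2 (chr5:179110853-179345461) 2.19 Mb. TCERG1L (chr10:131092391-131311721) was 2.49 Mb from the end, RIMBP2 (chr12:130396133-130768228) 2.51 Mb and MGMT (chr10:129467190-129770983) 4.03 Mb. SHANK2 (chr11:70467854-71252577) and OCA2 (chr15:27754875-28099315) were far from an end, at 63.8 and 27.8 Mb. MGMT and CACNA1B are on the plus strand and the others on the minus strand. MGMT and TCERG1L lie close together near the end of chromosome 10, so that the 9 genes are not 9 fully separate places of the genome. ADAMTS17 and OCA2 are both on chromosome 15 but far apart. The body of SHANK2 includes 100.0 kb without sequence in hg38, where no peak can lie.

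The exons of the main transcripts filled between 2.62 kb (TCERG1L) and 10.8 kb (SHANK2) of these genes, and the peaks lay mostly in introns. The following stretches show the DNA in question. Each is the longest run of its gene body in which all 6 irradiated WT libraries had an H3K4me3 peak and no unirradiated WT and no irradiated ASH1L-/- library had one, or its central 200 bases. Each of the 9 genes has such a run, and these 4 are shown because they span the range, 0 to 3, of unirradiated ASH1L-/- libraries with a peak over the run. Capitals mark CpG dinucleotides, and the plus strand of hg38 is given 5′ to 3′.
SHANK2, chr11:70687636-70687835: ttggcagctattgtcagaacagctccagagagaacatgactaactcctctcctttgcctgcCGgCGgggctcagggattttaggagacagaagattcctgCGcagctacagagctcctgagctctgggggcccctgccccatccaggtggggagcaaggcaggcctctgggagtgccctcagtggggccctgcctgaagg
TCERG1L, chr10:131116953-131117152: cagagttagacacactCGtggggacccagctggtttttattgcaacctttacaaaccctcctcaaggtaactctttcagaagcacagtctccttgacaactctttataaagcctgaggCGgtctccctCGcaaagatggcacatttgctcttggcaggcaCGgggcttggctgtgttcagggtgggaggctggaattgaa
OCA2, chr15:27904192-27904391: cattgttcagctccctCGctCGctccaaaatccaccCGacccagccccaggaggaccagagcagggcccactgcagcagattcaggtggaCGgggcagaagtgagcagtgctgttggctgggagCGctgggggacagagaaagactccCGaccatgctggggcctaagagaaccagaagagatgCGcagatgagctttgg
ADAMTS17, chr15:100232232-100232367: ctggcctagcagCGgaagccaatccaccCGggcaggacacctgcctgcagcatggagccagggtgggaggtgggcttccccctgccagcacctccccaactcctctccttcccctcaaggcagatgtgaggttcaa
All 4 lie in introns, 565 kb (SHANK2), 195 kb (TCERG1L and OCA2) and 110 kb (ADAMTS17) from the start site. The WT and irradiated ASH1L-/- libraries chose these runs, and the unirradiated ASH1L-/- libraries did not. Of those 3 libraries, 3 had a peak over the ADAMTS17 run, 2 over the OCA2 run, 1 over the SHANK2 run and 0 over the TCERG1L run. Of the 5 runs not shown, those of CACNA1B, RIMBP2 and ADAMTS2 had a peak in 1 of the 3 and those of PTPRN2 and MGMT in 0, and all but that of PTPRN2, which lies in an exon, are intronic. The SHANK2 stretch has 61.0% GC and 3 CpG, that of TCERG1L 51.0% and 4, that of OCA2 61.0% and 7, and that of ADAMTS17 64.7% and 2. The PTPRN2 run, of 158 bp, has 63.9% and 10. All runs of this kind summed to 5090 bp in TCERG1L, 2682 bp in SHANK2, 1673 bp in OCA2 and 476 bp in ADAMTS17.

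The size of the peak lists differed with time. H3K4me3 lists held 72984 to 142688 peaks. They covered 70.1 to 93.3 Mb in unirradiated and 97.2 to 132 Mb in irradiated WT cells, against 74.3 to 91.7 Mb and 79.4 to 108 Mb in ASH1L-/- cells. Of the 19 XPC lists, 17 ended at 500000 peaks, and the XPC lists covered 165 to 464 Mb. The promoters of 5 of 7 osteoblast and mesenchymal genes, RUNX2, PRRX1, COL1A1, SPARC and VIM, carried H3K4me3 in all unirradiated libraries, those of TWIST1 and COL1A2 in none, and 0 of 3 blood genes did. The promoters of the neuronal genes SYP, SNAP25 and STMN2 also carried it in every unirradiated library, and of 3 melanocyte genes only PMEL did. Peak lists do not check the ASH1L label, since the promoter of ASH1L lies outside the deletions. It was covered over 2.73 kb in WT and 2.75 kb in ASH1L-/- cells.

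In WT cells the 9 gene bodies together had 7.82% to 12.4% of their length under H3K4me3 peaks without UV, 16.8% to 19.7% at 1 h and 19.8% to 28.5% at 3 h. Without ASH1L they had 9.56% to 14.3% without UV, 6.57% to 10.7% at 1 h and 5.15% to 9.02% at 3 h. The share of all covered DNA that lay in the 9 bodies takes the size of each list into account. In WT libraries the mean ± SD of this share (n = 3 for each time) was 0.454% ± 0.0511 before UV, 0.642% ± 0.0289 at 1 h and 0.807% ± 0.0531 at 3 h. Without ASH1L it was 0.543% ± 0.0768, 0.356% ± 0.0355 and 0.276% ± 0.0425. The 6 irradiated ASH1L-/- libraries, at 0.241% to 0.390%, were all below the 3 unirradiated ones, at 0.456% to 0.5998%. In bulk chromatin, fewer cells with the mark and less mark per cell cannot be told apart.

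The plot of H3K4me3 by library shows the same order gene by gene. SHANK2 had 35.0, 31.7 and 46.5 kb under peaks in unirradiated WT cells, 109, 81.3 and 90.2 kb at 1 h and 173, 112 and 142 kb at 3 h. Without ASH1L it had 45.2, 55.6 and 54.4 kb, then 25.9, 43.7 and 33.0 kb, and 33.4, 24.3 and 24.1 kb. Irradiated and unirradiated libraries did not overlap in either genotype, and SHANK2 was the only one of the 9 genes of which that held. Of all bodies tested, irradiated WT libraries were all above unirradiated ones in 17.1%, and irradiated ASH1L-/- libraries all below in 1.44%. RIMBP2 had 22.4, 23.7 and 39.3 kb in unirradiated WT cells, 47.5, 46.6 and 69.2 kb at 1 h and 93.8, 58.1 and 101.3 kb at 3 h. The ASH1L-/- values were 29.5, 46.7 and 62.6 kb without UV, 18.8, 41.0 and 32.6 kb at 1 h and 40.2, 18.6 and 22.4 kb at 3 h, so that irradiated and unirradiated libraries overlapped there.

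**Figure D1:**
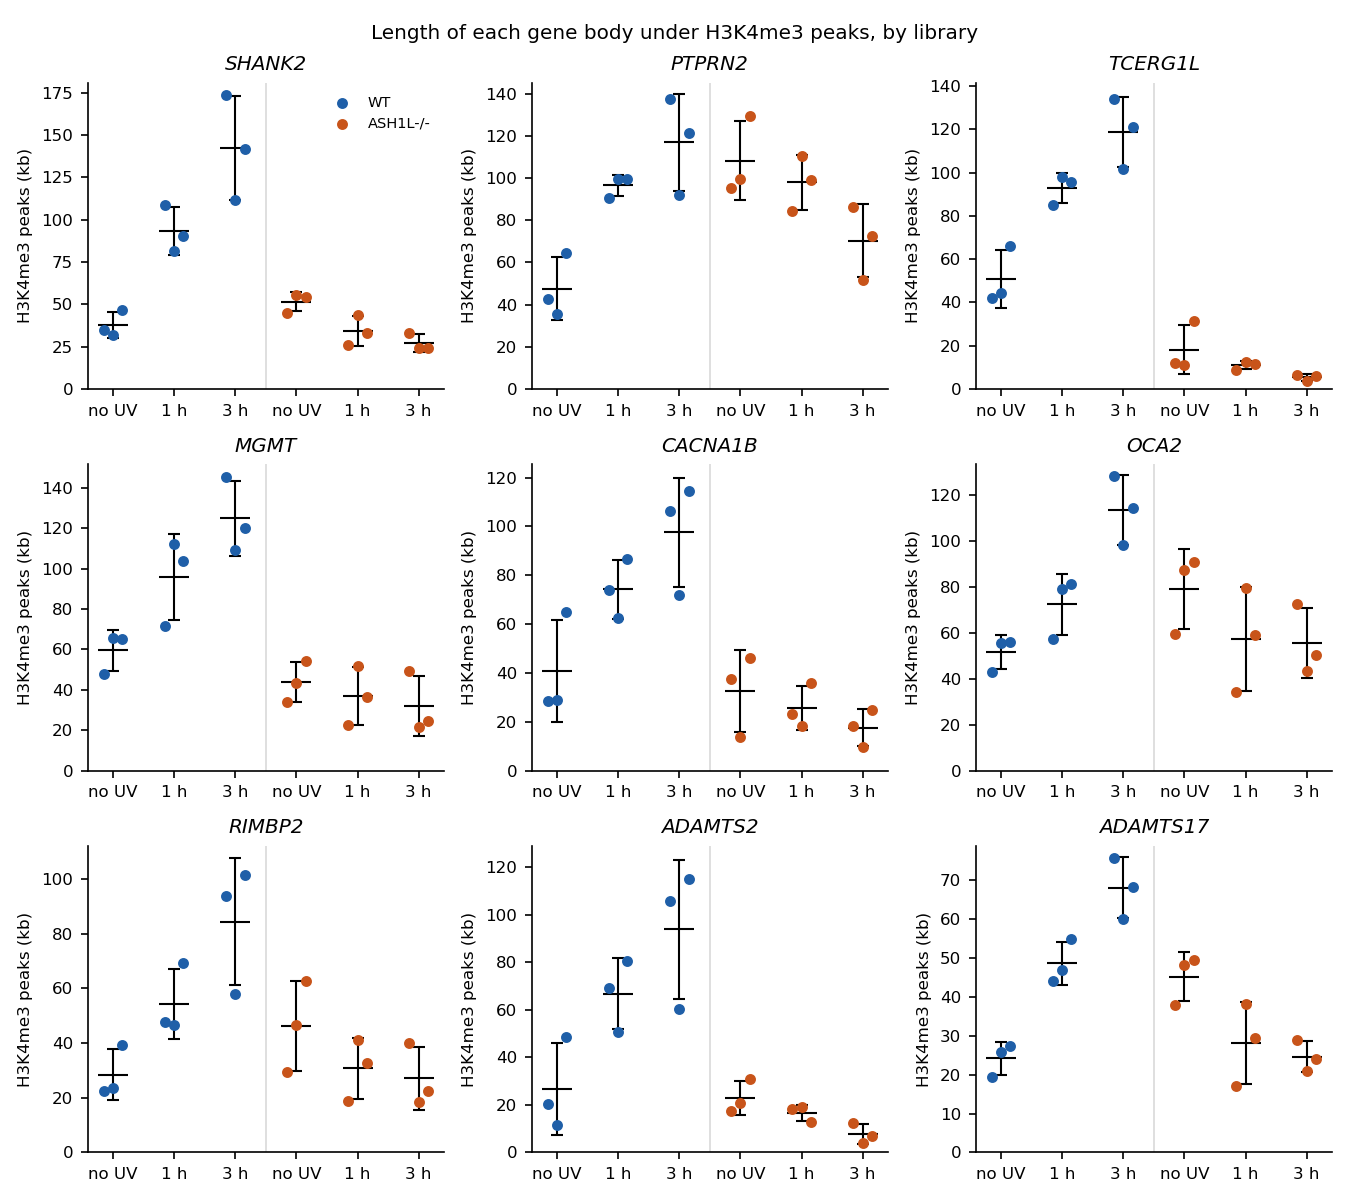
Length of each of the 9 gene bodies under H3K4me3 peaks in kb (vertical axis) in WT and ASH1L-/- cells without UV and 1 h or 3 h after UV (each point is a library, each bar a mean with its SD over 3 libraries). In WT cells irradiated libraries lie above unirradiated ones for 8 of 9 genes (17.1% of all bodies tested), the values that chose the genes. In ASH1L-/- cells the means after UV lie below the unirradiated mean in all 9.

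CACNA1B was the exception in WT cells. It had 28.6, 28.9 and 64.8 kb without UV, 73.9, 62.4 and 86.6 kb at 1 h and 106, 72.0 and 114 kb at 3 h, with 1 irradiated library just below the highest unirradiated one. Without ASH1L it had 37.7, 13.8 and 46.2 kb, then 23.2, 18.4 and 35.9 kb, and 18.3, 9.81 and 24.9 kb. PTPRN2 had 42.5, 35.7 and 64.3 kb in unirradiated WT cells, 90.5, 99.5 and 99.4 kb at 1 h and 137, 91.9 and 121 kb at 3 h. Its unirradiated ASH1L-/- libraries were already high, at 95.4, 99.5 and 129.6 kb, and were followed by 84.4, 110.4 and 98.9 kb at 1 h and 86.3, 51.9 and 72.7 kb at 3 h.

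TCERG1L, the shortest of the 9 bodies, had the fewest kb under peaks without ASH1L. In WT cells it had 42.1, 44.3 and 66.2 kb without UV, 85.2, 98.0 and 95.6 kb at 1 h and 134, 102 and 121 kb at 3 h, when 54.7% of its body was covered on average. Its ASH1L-/- libraries had 12.2, 11.0 and 31.4 kb, then 8.80, 12.7 and 11.8 kb, and 6.52, 3.63 and 5.98 kb, or 2.47% of the body at 3 h. Per length, ADAMTS2 had 3.31% and SHANK2 3.48% at 3 h without ASH1L. In unirradiated ASH1L-/- cells TCERG1L had 8.38% of its body covered, against 6.61% in SHANK2. Over both times, irradiated WT libraries of TCERG1L, which helped choose the genes, had 12.9 times the length of irradiated ASH1L-/- ones. ADAMTS2 was next by this measure with a ratio of 6.59. It had 20.4, 11.3 and 48.4 kb in unirradiated WT cells, 69.1, 50.7 and 80.4 kb at 1 h and 106, 60.5 and 115 kb at 3 h. Without ASH1L it had 17.4, 20.6 and 30.9 kb, then 18.3, 18.9 and 12.7 kb, and 12.2, 4.10 and 6.79 kb.

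MGMT had 48.0, 65.5 and 65.2 kb in unirradiated WT cells, 71.6, 112 and 104 kb at 1 h and 145, 109 and 120.1 kb at 3 h. Its ASH1L-/- values spread widely, with 34.0, 43.5 and 54.2 kb, then 22.6, 51.7 and 36.6 kb, and 49.3, 21.9 and 24.8 kb. OCA2 had 43.1, 55.5 and 56.3 kb in unirradiated WT cells, 57.2, 79.2 and 81.2 kb at 1 h and 128, 98.1 and 114 kb at 3 h. Without ASH1L it had 59.3, 87.2 and 91.1 kb, then 34.3, 79.4 and 58.9 kb, and 72.7, 43.6 and 50.4 kb, with overlapping groups. ADAMTS17 had 19.4, 25.9 and 27.4 kb in unirradiated WT cells, 44.2, 46.9 and 54.8 kb at 1 h and 75.9, 60.2 and 68.3 kb at 3 h. Its ASH1L-/- libraries had 37.9, 48.3 and 49.6 kb, then 17.2, 38.2 and 29.4 kb, and 28.9, 20.9 and 24.0 kb, so that 5 of 6 irradiated libraries were below the lowest unirradiated one.

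Before UV the genes differed in how ASH1L-/- cells compared with WT cells. All unirradiated ASH1L-/- libraries were above all WT ones for PTPRN2, OCA2 and ADAMTS17, with ratios of the means of 2.28, 1.53 and 1.87. They were all below for TCERG1L, with a ratio of 0.358, and overlapped for the other 5 genes, with ratios from 0.737 (MGMT) to 1.62 (RIMBP2). After UV, irradiated ASH1L-/- libraries were all below irradiated WT ones for 7 genes, and overlapped for PTPRN2 and OCA2. Over all 12402 bodies tested, unirradiated ASH1L-/- libraries were all above WT ones in 9.88% and all below in 4.44%, and irradiated ones were all below WT in 6.88%. These comparisons hold the WT values that chose the genes and were not tested.

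Averaged over both times and set against the unirradiated mean, the WT change was 80.2 kb in SHANK2, 59.2 kb in PTPRN2, 54.99 kb in TCERG1L, 53.6 kb in ADAMTS2 and 50.7 kb in MGMT. It was 45.1 kb in CACNA1B, 41.5 kb in OCA2, 41.0 kb in RIMBP2 and 34.2 kb in ADAMTS17. Over all bodies, 19% rose in WT cells past an adjusted p of 0.05 in limma, with a median change of 0.43 kb, against 50.7 kb for the 9 genes that were chosen for it. Scaled to an equal sum over all gene bodies in each library, the calls over all bodies went from 2359 higher and 9 lower to 336 and 147, and the median change was 0.03 kb.

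In ASH1L-/- cells, whose libraries the WT change does not use, the change was negative in all 9 genes, and 1 of them, ADAMTS17, passed the test. The 9 were picked with earlier results of these data known, so that this count is not shown to be independent of the pick. Its covered length fell by 18.8 kb (SE 4.99, adjusted p = 0.0333, limma with Benjamini-Hochberg adjustment over 12402 bodies), 5.11% of the body. Of all bodies, 0.96% fell past the same threshold. The other 8 genes did not pass. The changes of PTPRN2, OCA2 and SHANK2 were −24.1, −22.7 and −21.0 kb (adjusted p = 0.224, 0.208 and 0.216 in limma), with 95% intervals that reached 2.64, 1.58 and 1.86 kb above 0. That of RIMBP2 was −17.3 kb (adjusted p = 0.272), and those of CACNA1B, ADAMTS2, TCERG1L and MGMT were −10.9, −10.8, −9.98 and −9.41 kb (adjusted p from 0.391 to 0.611). The 9 genes were between rank 4 (PTPRN2) and rank 27 (MGMT) from the most negative change of all bodies. Their median change was −17.3 kb, against 0.26 kb over all bodies tested, of which 19.02% had a change below 0. Long bodies can change by more kb in either direction, and per length the median was −4.59% of the body for the 9 genes and 0.552% over all.

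**Figure D2:**
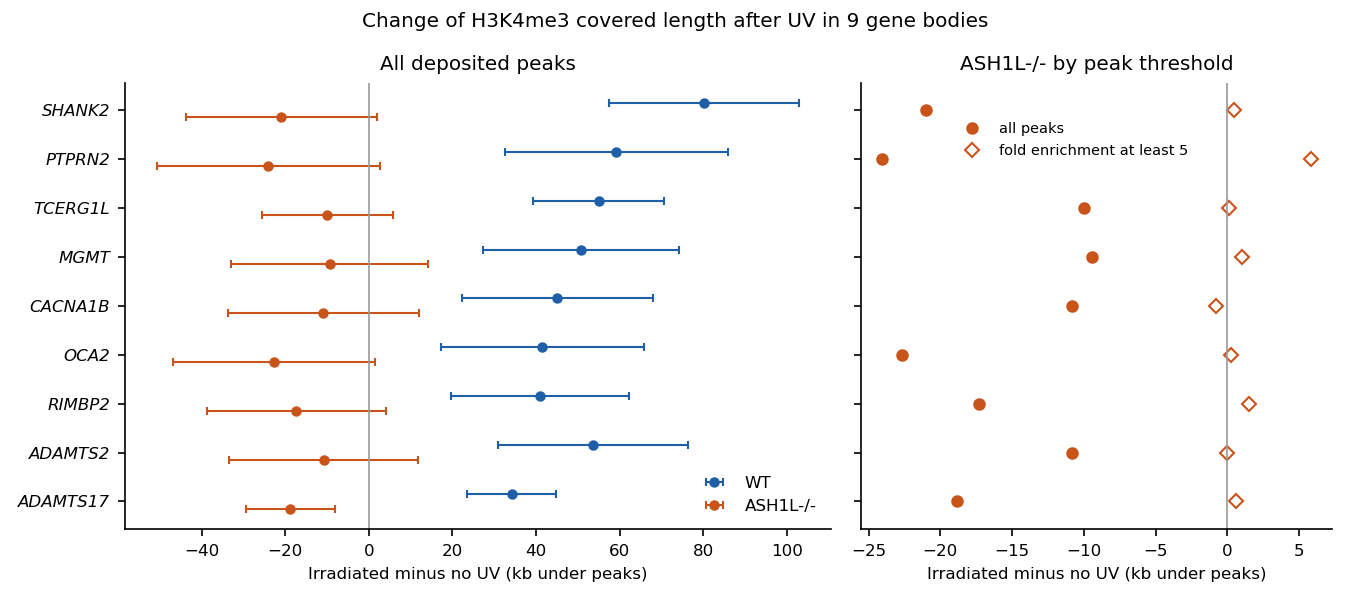
Left, change of H3K4me3 covered length after UV in kb (irradiated minus no UV, means over 1 h and 3 h with 95% intervals from limma, 6 against 3 libraries) for the 9 genes in WT and ASH1L-/- cells. Right, the ASH1L-/- change with all peaks and with peaks of at least 5-fold enrichment. All 9 are below 0 with all peaks and near 0 or above it, up to 5.81 kb in PTPRN2, with strongly enriched peaks.

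The ASH1L-/- result changed when weak peaks were left out. Fold enrichment is the height of a peak over the pooled input. Of the H3K4me3 peaks in the 9 bodies, 1.97% had at least 5-fold enrichment in unirradiated WT cells, 7.29% in irradiated WT cells, 2.04% in unirradiated and 3.66% in irradiated ASH1L-/- cells. The median enrichment in a body was between 2.35 and 3.75 in every library. Counting peaks of at least 5-fold only, the ASH1L-/- change of ADAMTS17 was 0.58 kb (adjusted p = 0.857 in limma), and of the 9 genes CACNA1B alone had a negative change, of −0.76 kb. Scaled to an equal sum over all gene bodies in each library, 5 of 9 genes fell past the threshold (ADAMTS17, PTPRN2, OCA2, RIMBP2 and SHANK2). The calls over all bodies then went from 1017 higher and 119 lower to 733 and 416. On a log2 scale 3 of 9 fell (ADAMTS17, SHANK2 and TCERG1L). The fall of ADAMTS17 no longer passed without any 1 of the 3 unirradiated ASH1L-/- libraries (adjusted p = 0.0596, 0.138 and 0.105 without replicates 1, 2 and 3) or without replicate 3 at 1 h (0.0538).

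Peaks in the bodies changed in number and width. SHANK2 held 88.7 ± 16.5 peaks in unirradiated WT cells (mean ± SD, n = 3) and 178 ± 35.6 in irradiated ones (n = 6), against 109 ± 10.6 and 57.5 ± 11.7 in ASH1L-/- cells. TCERG1L held 115 ± 19.3 and 118 ± 11.4 peaks in WT cells, hardly more after UV, while its median peak went from 353 ± 7.75 to 640 ± 138 bp. ADAMTS17 held 51.3 ± 5.69 and 82.8 ± 10.3 peaks in WT cells and 84.3 ± 13.3 and 43.7 ± 10.4 in ASH1L-/- cells, where the median width was 378 ± 15.8 bp without UV and 373 ± 73.0 bp after it. The longest H3K4me3 peak in any of the bodies, in an irradiated WT library over CACNA1B, measured 9037 bp.

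Along the genes the WT gain was spread out. In 20 kb steps the 9 bodies gave 198 windows, of which 182 had a positive WT change and 86 had all irradiated WT libraries above all unirradiated ones. Positive WT changes were common elsewhere too, from 73.0% of tested steps of other genes below 40% GC to 96.9% at 55% GC and above. The steps with the highest changes, 3 of 12 in ADAMTS2 and 13 of 53 in PTPRN2, held between 33.8% (ADAMTS2) and 58.9% (PTPRN2) of a gene's total. All steps of MGMT, CACNA1B, OCA2 and ADAMTS2 gained in WT cells, 16, 13, 18 and 12 of them. In ASH1L-/- cells 150 of the 198 steps had a negative change, and 146 had a positive WT and a negative ASH1L-/- change. Of tested steps of other genes, 20.6% (below 40% GC) to 40.7% (50% to 55% GC) had a negative ASH1L-/- change. For the counts of 86 and 146 no share of other steps was taken.

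**Figure D3:**
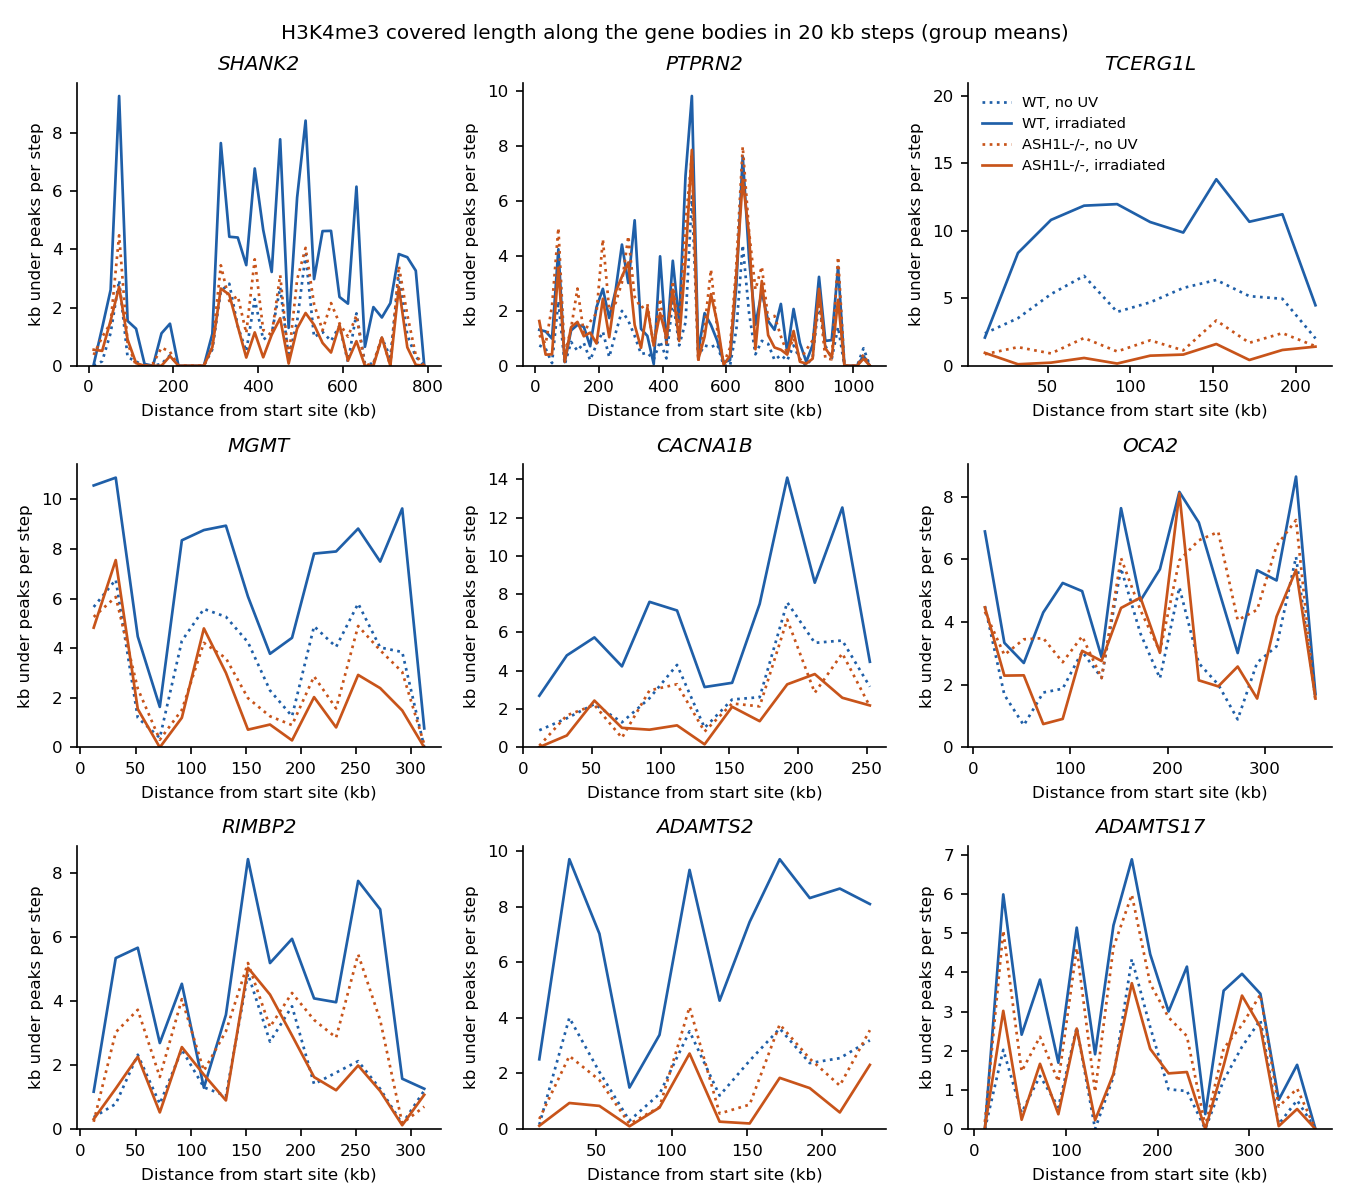
Mean length under H3K4me3 peaks in each 20 kb step (vertical axis, kb) by distance from the start site (horizontal axis, kb) for the 9 genes, in WT and ASH1L-/- cells without UV (dotted, n = 3) and irradiated (solid, n = 6). Irradiated WT cells lie above unirradiated ones along most of each body, and the peaks and troughs of the 4 lines fall at similar places.

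Of 186 steps tested in ASH1L-/- cells, 13 fell and 0 rose past an adjusted p of 0.05 in limma. Over all 31759 steps tested, 1.05% fell. The 13 lay in ADAMTS17 (5), OCA2 (4), PTPRN2 (3) and SHANK2 (1), and neighbouring steps of one gene are not separate observations. Steps 12 and 13 of OCA2, which lie side by side in the melanosomal gene, had the largest falls of the 13. Step 13 went from 6.88 ± 0.513 to 1.95 ± 0.741 kb (n = 3 and 6, change −4.93 kb, adjusted p = 0.000904 in limma), and step 12 from 6.61 ± 0.861 to 2.14 ± 1.25 kb (change −4.47 kb, adjusted p = 0.00303). In WT cells the same steps went from 2.01 ± 0.912 to 5.07 ± 2.96 kb and from 2.69 ± 1.01 to 7.18 ± 2.41 kb. In ADAMTS17, step 8 went from 4.64 ± 0.902 to 1.41 ± 0.775 kb in ASH1L-/- cells (change −3.23 kb, adjusted p = 0.00914 in limma), and from 1.34 ± 0.809 to 5.20 ± 1.87 kb in WT cells. The count of 13 was 3 without replicate 3, and 5 without replicate 2, of the unirradiated ASH1L-/- libraries, 8 without replicate 3 at 3 h, and 0 with peaks of at least 5-fold enrichment. With equal totals it was 52, and on a log2 scale 22.

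Steps with a larger WT gain had a larger ASH1L-/- loss, with a Pearson r of −0.49 over the 198 steps. Per gene r went from −0.86 (ADAMTS2, 12 steps) and −0.81 (SHANK2, 40 steps) to −0.08 (MGMT, 16 steps). The WT and ASH1L-/- changes share no library, but steps share sequence and neighbours, so r is a description. The WT gain was also larger where unirradiated ASH1L-/- cells had more H3K4me3 (r = 0.48 over all steps, and 0.50 to 0.79 within genes).

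**Figure D4:**
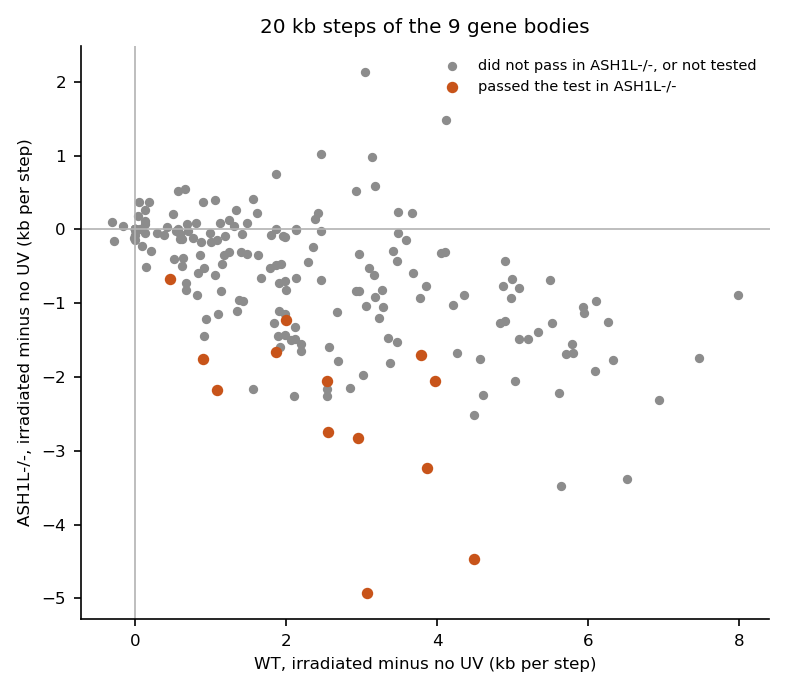
Change of H3K4me3 covered length per 20 kb step after UV in WT cells (horizontal axis, kb) and in ASH1L-/- cells (vertical axis, kb), for the 198 steps of the 9 gene bodies (points are steps). Most points lie right of 0 and below 0, and the 13 steps that passed the test in ASH1L-/- cells, in orange, all fell.

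In base composition the steps were GC-rich, with a median of 50.1% GC against 41.0% over all steps tested, 18.9 against 9.15 CpG per kb, and 135 against 195 TT or AA dinucleotides per kb, the possible places of a thymine dimer on either strand. Steps of like GC content in other genes had smaller median changes, which in WT cells follows from the choice of the genes. At 45% to 50% GC, 96.4% of 56 steps of the 9 genes gained in WT cells and 82.1% were lower after UV in ASH1L-/- cells, against 91.0% and 39.6% of 4593 other steps. The median ASH1L-/- change was −0.67 kb in the former and 0.04 kb in the latter. At 50% to 55% GC the medians were −0.81 kb (82 steps) and 0.01 kb (2588 steps). At 40% to 45% they were −0.59 kb (29 steps) and 0.14 kb, and at 55% and above −0.59 kb (15 steps) and 0.05 kb. Below 40% GC the 9 genes had only 4 steps, 0% of them lower in ASH1L-/- cells, with medians of 0.25 and 0.16 kb. The part of GC content in these changes was not tested. Within genes, r between the WT gain and GC content was 0.85 in TCERG1L and 0.62 in RIMBP2, and between −0.11 and 0.31 in the other 7.

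The promoters, 4 kb around the start sites, were also examined. Those of PTPRN2 and OCA2 had no H3K4me3 peak in any of the 18 libraries, so that 2 of the 9 bodies were covered without a marked main start site. The CACNA1B promoter was covered in 8 of 9 WT libraries, over 0.481 ± 0.513 kb without UV and 1.77 ± 0.722 kb after it, and in 0 of 9 ASH1L-/- libraries. The other 6 promoters were covered in all 18 libraries, from 1.28 ± 0.119 kb (SHANK2) to 2.66 ± 0.0314 kb (TCERG1L) in unirradiated WT cells. In irradiated against unirradiated ASH1L-/- cells their changes were positive, from 0.05 kb (RIMBP2) to 0.26 kb (ADAMTS2), and none passed (smallest adjusted p = 0.0542 for TCERG1L, limma), while 2, TCERG1L and ADAMTS2, had an unadjusted p under 0.05. Of all promoters tested, 24% rose. With the sum over all promoters made equal in each library, the calls over all promoters went from 3536 higher and 38 lower to 561 and 868. That scaling holds the total promoter cover equal and does not correct for the size of a list. For TCERG1L the promoter went from 2.68 ± 0.0518 to 2.85 ± 0.1005 kb (n = 3 and 6) while the body went from 18.2 to 8.24 kb on average. Scaled to an equal sum over all promoters, the promoter changes of TCERG1L, SHANK2, RIMBP2 and ADAMTS17 turned negative, between −0.18 and −0.01 kb.

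Related genes were listed by family to see whether they moved with the 9. Of all 12402 bodies tested, 2359 (19%) rose and 9 fell in WT cells. In ASH1L-/- cells 1017 rose and 119 (0.96%) fell. Among 7 other calcium channel alpha subunits tested, 4 rose in WT and 1 fell in ASH1L-/- cells, the latter being CACNA1S. CACNA1C, the pore of an L-type channel, gained 38.9 kb in WT cells (SE 5.33, adjusted p = 8.12e-04, limma) and had a change of −8.16 kb in ASH1L-/- cells (adjusted p = 0.333). It lies 1.97 Mb from a chromosome end. CACNA1A gained 6.15 kb in WT cells (adjusted p = 0.0300) and had 4.39 kb in ASH1L-/- cells (adjusted p = 0.129). Of 19 other ADAMTS and ADAMTS-like genes, 2 rose and 1 fell in WT cells and 0 passed in ASH1L-/- cells. ADAMTS18 rose by 1.40 kb (adjusted p = 0.0207, limma), and ADAMTS5, an aggrecanase, fell by 0.68 kb (adjusted p = 0.0453). Of 19 other receptor phosphatases, 5 rose in WT and 1 in ASH1L-/- cells, with PTPRS at 5.18 kb and PTPRE at 4.37 kb in WT cells (adjusted p = 7.21e-04 and 0.00113, limma). PTPRT, whose body measures 1115 kb, had differences of 98.1 kb in WT and −20.0 kb in ASH1L-/- cells (SE 52.2 for both) and did not pass in either (adjusted p = 0.183 and 0.839, limma).

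Among 13 other postsynaptic scaffold genes 3 rose in WT cells, where 19% of all bodies did. In ASH1L-/- cells 2 rose, where 1017 of all 12402 bodies did. DLGAP2 is close to PTPRN2 in length and in distance to a chromosome end, with a body of 969 kb that lies 0.738 Mb from it, and it rose in both genotypes, by 7.42 kb in WT and 7.52 kb in ASH1L-/- cells (adjusted p = 0.0113 and 0.0181, limma). DLGAP4 rose by 2.42 kb in WT cells (adjusted p = 0.00998). Of 12 other active zone genes 2 rose in WT cells, ERC1 among them by 7.77 kb (adjusted p = 0.0138, limma), and 1, RIMS4, fell by 0.96 kb in ASH1L-/- cells (adjusted p = 0.00929). Of 5 other melanosome genes tested none passed in either genotype. ALKBH2, which also reverses alkylation damage directly, rose by 0.53 kb in WT cells (adjusted p = 0.0453, limma), and ALKBH3 did not pass in either genotype. The family medians lay between 0.01 and 2.12 kb in WT cells and between −0.04 and 0.60 kb in ASH1L-/- cells, against 50.7 and −17.3 kb in the 9 genes.

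Most genes next to the 9 had smaller changes in kb, and most of them have shorter bodies. The 77 nearest other gene bodies, up to 5 on each side of each gene, had median changes of 0.98 kb in WT and 0.16 kb in ASH1L-/- cells. Of them 26 rose in WT cells, where 19% of all bodies did. In ASH1L-/- cells 0 fell and 1 rose, GLRX3 between MGMT and TCERG1L (0.63 kb, adjusted p = 0.0260, limma). Some long neighbours came closer in WT cells. GABRG3 (569 kb), beside OCA2, had 40.3 kb and did not pass (adjusted p = 0.232, limma). TMEM132C (439 kb), beside RIMBP2, gained 32.8 kb (adjusted p = 0.0436) and EHMT1 (249 kb), beside CACNA1B, 22.4 kb (adjusted p = 0.00958). LMBR1 (222 kb), near PTPRN2, had 0.04 kb. In ASH1L-/- cells GABRG3 had −14.1 kb, TMEM132C 0.90 kb and EHMT1 3.95 kb, and none passed. Of 76 long bodies (at least 200 kb) within 5 Mb of a chromosome end, the 7 included, 65.8% rose in WT cells and 1.32% fell in ASH1L-/- cells, against 18.4% and 0.838% of 1194 long bodies farther away. Their median ASH1L-/- changes were 0.65 and 1.05 kb.

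Across the 18 H3K4me3 libraries the covered lengths of the 9 genes correlated, with a Pearson r between 0.37 and 0.97 for pairs and a median of 0.85, a description in which all points share the libraries. Of 6687 other bodies with at least 1 kb covered on average, the 5 most like the mean profile of the 9 were CAPN14 (r = 0.982), ZNF423 (0.969), CCDC13 (0.964), ZNF536 (0.961) and WNT7A (0.960). The likeness was measured on the same libraries, so that their directions follow from the choice. None of these 5 lay within 5 Mb of a chromosome end.

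XPC did not change past the threshold after UV in any of the 9 genes. In WT cells together they had 17.2% ± 6.26 of their length under XPC peaks without UV (n = 4), 15.2% ± 4.01 at 1 h and 17.5% ± 6.98 at 3 h (n = 3 each). Without ASH1L they had 25.0% ± 3.64, 21.5% ± 1.63 and 26.6% ± 17.5 (n = 3 each), the last spread over lists of very different size. None of the 9 passed in WT cells after UV, where 0.687% of all bodies did, with changes from −27.4 kb (ADAMTS17, 95% interval −71.9 to 17.1) to 7.69 kb (TCERG1L, −12.3 to 27.6). None passed in ASH1L-/- cells, where 0.00582% of all bodies did, with changes from −36.0 kb (ADAMTS17, −84.7 to 12.8) to 20.8 kb (SHANK2, −73.0 to 115). At an unadjusted p under 0.05 the count was 0 in both genotypes. In no gene were irradiated and unirradiated WT libraries apart. TCERG1L, for example, had 48.4, 31.1, 51.9 and 24.3 kb without UV, 51.1, 38.7 and 47.7 kb at 1 h and 39.8, 69.5 and 33.0 kb at 3 h. The intervals are wide, and a change within them was not detectable with these lists. Over the 198 steps, r between the WT gain of H3K4me3 and XPC in irradiated WT cells was 0.47 and ranged from −0.21 (ADAMTS2) to 0.67 (TCERG1L) within genes.

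Between genotypes 1 gene differed in XPC, and by a large amount. PTPRN2 had 131, 86.7, 159 and 50.7 kb under XPC peaks in unirradiated WT cells and 479.6, 402 and 378 kb in unirradiated ASH1L-/- cells, 10.2% and 40.1% of its body. In irradiated WT cells it had 195, 72.2 and 86.6 kb at 1 h and 86.3, 175 and 38.4 kb at 3 h, against 361, 372 and 439.9 kb and 114, 598 and 448 kb without ASH1L. The unirradiated groups did not overlap, and 4.14% of all bodies had unirradiated ASH1L-/- libraries all above WT ones. After UV the lowest ASH1L-/- library, the list of 326438 peaks at 3 h, was within the WT range. The difference was 313 kb without UV (SE 82.7, adjusted p = 0.0393, limma) and 280.0 kb after it (SE 62.6, adjusted p = 0.0168), the largest positive difference of 17181 bodies in both comparisons. Of all bodies 0.815% and 0.955% were higher in ASH1L-/- cells. The unirradiated call was lost without any 1 of the 7 libraries (adjusted p from 0.0612 to 0.173), and the irradiated one without ASH1L-/- replicate 3 at 1 h or at 3 h (0.0542 and 0.0575).

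The difference at PTPRN2 was part of a wider one. Of its 53 steps all 53 had a higher mean without ASH1L, with a median of 7.57 kb against 2.03 kb per step. The neighbours on both sides, out to the last tested gene of the chromosome, were higher too. UBE3C, a ubiquitin ligase, had 2.45% of its body covered in unirradiated WT and 21.1% in ASH1L-/- cells, DNAJB6, a co-chaperone, 9.81% and 71.0%, NCAPG2, a condensin subunit, 2.78% and 25.4%, and VIPR2, a neuropeptide receptor, 8.84% and 34.7%. Of these 6 neighbours 5 passed without UV and 6 after it (limma, adjusted p for UBE3C = 0.00538 and 0.00299). The next 3 genes inward, MNX1, NOM1 and LMBR1, had 0 to 1.16% in both genotypes and did not pass. H3K4me3 in unirradiated cells was also higher without ASH1L in the 6 neighbours, for example 4.44% against 1.73% in NCAPG2, and in NOM1 and MNX1 (5.09% against 3.996%, and 9.07% against 7.72%). The number of copies of this part of chromosome 7 in the ASH1L-/- line was not tested, and the ratio of the genotypes cannot be told apart from a difference between the clones.

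With only XPC peaks of a −log10 p of at least 2, the PTPRN2 difference was 23.3 kb without UV and 1.25 kb after it (adjusted p = 0.306 and 1.00, limma). That limit kept from 590 to 87199 peaks of a list, against 326438 to 500000 without it. Most peaks of every XPC list therefore lay below it. The other 8 genes did not differ past the threshold between genotypes. Without UV their differences lay between −27.1 kb (CACNA1B) and 38.0 kb (ADAMTS2), and after it between −26.7 kb (CACNA1B) and 31.8 kb (ADAMTS2). OCA2 came nearest after UV, at 23.6 kb (95% interval 4.59 to 42.5, adjusted p = 0.262), and passed without the 2 shorter lists (33.5 kb, adjusted p = 0.0438, limma).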

How the data were processed

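H3K4me3 and XPC were measured by ChIP-seq in U2OS cells (61 samples, of which 18 inputs and 6 XPC-/- samples gave no list used here). Per the labels and the study's methods, the authors trimmed reads with Trim Galore 0.6.5, mapped them to hg38 without chromosome Y with BWA 0.7.17-r1188, and used SAMtools 1.7, Picard and bedtools 2.29.2. They called peaks in each library with MACS2 2.2.7.1, H3K4me3 as narrow peaks against pooled input and XPC as broad peaks against pooled XPC-/- precipitates. The stated p threshold is 0.01, which the H3K4me3 lists keep to, but the lowest −log10 p of the XPC lists was 1.00 to 1.47. The deposited lists give positions, fold enrichment as a ratio, and −log10 p-values and q-values, without read counts. Read depth was not used here.

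The bases under peaks were summed in promoters (2 kb each side of the start site of the MANE or Ensembl canonical transcript), bodies and 20 kb steps, without the promoters of other genes. Groups were compared with limma 3.58.1 (R 4.3.3, trend and robust, Benjamini-Hochberg) on kb, with all 6 groups in a fit and windows covered in at least 3 libraries. The labels call replicates biological without saying more, and p-values measure the spread between these libraries. Alternatives were equal totals, log2(kb + 0.1), no filter, 5-fold enrichment or −log10 p of 2, other promoters kept, the replicate number as a block, and each library left out. Equal totals means that each library was scaled to the same summed kb over all windows of that kind (bodies, steps or promoters). It was not scaled to the total of its list. The times alone were added after seeing the data. Sums were made in Python 3.11.15 with pysam 0.24.0 and pandas 2.3.3.

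The 9 genes, the gene lists and the tests were chosen with earlier results of these data known. The genes named were the 9, from each family the 2 others with the smallest p past the threshold, up to 3 neighbours by the smallest p in ASH1L-/- cells, and the 5 bodies most like the mean profile. CACNA1S, PTPRT, TAFA5, TMEM132C, GABRG3, EHMT1 and the genes around PTPRN2 were named after their values were seen. One listed gene is not reported here.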

Additional observations from a re-analysis of the deposited data

Results flagged for a closer look

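In 5 of the 9 genes every irradiated WT library was above the unirradiated WT mean and every irradiated ASH1L-/- library was below the unirradiated ASH1L-/- mean in H3K4me3 covered length. The WT part of this is what chose the genes. Of all 12402 bodies tested, 2.13% had both moves, and 5.47% had every irradiated ASH1L-/- library below the unirradiated mean. The ASH1L-/- changes in these genes were −21.0 kb in SHANK2, −18.8 kb in ADAMTS17, −17.3 kb in RIMBP2, −10.8 kb in ADAMTS2 and −9.98 kb in TCERG1L. The difference between the genotypes was not tested, because the WT change chose the genes. With peaks of at least 5-fold enrichment the ASH1L-/- change was above 0 in 4 of these genes, by 0.12 kb (TCERG1L) to 1.52 kb (RIMBP2), and 0 in ADAMTS2, which had no such peak without ASH1L. The XPC values of the 4 unirradiated WT libraries held no library far from the others in any of the 9 genes.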

How the results depend on the processing

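The WT gain kept its direction in all 9 genes under every alternative. The ASH1L-/- changes were negative in all 9 under every alternative except the limit of 5-fold enrichment, where they were 0.45 kb in SHANK2, 5.81 in PTPRN2, 0.12 in TCERG1L, 1.04 in MGMT, 0.25 in OCA2, 1.52 in RIMBP2 and 0.58 in ADAMTS17. The cause was not tested. In ASH1L-/- cells 1 of the 9 bodies (119 of all) fell. With equal totals 5 (416 of all) fell, on the log2 scale 3, at 5-fold enrichment 0 (17) and at 1 h alone 0 (20). Of 20 kb steps 13 (335) fell, with equal totals 52 (954), on the log2 scale 22, at 5-fold enrichment 0 (30) and at 1 h alone 2 (100). All bodies that rose in WT cells numbered 2359, with equal totals 336, at 5-fold enrichment 1018 and at 1 h alone 867. All promoters that rose in ASH1L-/- cells numbered 3536, with equal totals 561, at 3 h alone 1713 and at 5-fold enrichment 1890, with 1 of the 9, MGMT, among them. Promoter changes turned negative with equal totals in SHANK2 (−0.0400 kb), TCERG1L (−0.0555), RIMBP2 (−0.180) and ADAMTS17 (−0.0100), and in RIMBP2 at 5-fold enrichment (−0.0033) and at 3 h alone (−0.0250).

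For XPC in WT cells after UV, 118 of all bodies passed, with equal totals 20, on the log2 scale 0, at a −log10 p of 2 0, without the 2 shorter lists 37, at 1 h alone 30 and at 3 h alone 38. In ASH1L-/- cells it was 1, with no filter 2, at a −log10 p of 2 9, and 0 with equal totals, on the log2 scale, without the shorter lists and at either time alone. TCERG1L in WT cells turned to −3.60 kb, and SHANK2 in ASH1L-/- cells to −3.32 kb, at a −log10 p of 2. SHANK2 had −21.7 kb at 1 h alone. Between genotypes without UV, PTPRN2 was no longer called at a −log10 p of 2 (0 of the 9, 1 of all). After UV the counts of the 9 and of all higher bodies were 1 and 164, at a −log10 p of 2 0 and 0, at 1 h alone 0 and 38, at 3 h alone 0 and 2, and 2 of the 9 without the shorter lists. With equal totals 405 and on the log2 scale 278 of all were higher. ADAMTS2 turned to −0.66 kb at a −log10 p of 2.

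Leaving out 1 library gave 3 to 12 falling steps of the 9 genes (148 to 302 of all), 0 to 1 bodies (38 to 113), 9 to 9 rising WT bodies (490 to 3482) and 0 to 1 promoters (1187 to 4234). For XPC it gave 0 to 0 of the 9 after UV in WT (39 to 188 of all) and ASH1L-/- cells (0 to 3), 0 to 0 between genotypes without UV (66 to 119) and 0 to 2 after it (98 to 305). The RIMBP2 promoter change ran from −0.0517 to 0.102 kb and the SHANK2 XPC change in ASH1L-/- cells from −15.3 to 48.7 kb.

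Replicate numbers paired the H3K4me3 libraries in part. Same-numbered H3K4me3 libraries correlated from −0.74 to 0.91 in their deviations from group means, with a median of 0.34. For different numbers the median was −0.18, and 12 of 18 libraries correlated best with their own number. Of the XPC libraries 10 of 19 did, with medians of −0.005 for the same number and −0.02 for different numbers. With the replicate number as a block, 1 body and 14 steps fell in ASH1L-/- cells, and the XPC difference of PTPRN2 without UV was 294 kb (adjusted p = 0.113, limma), so that 0 of the 9 were called there. Peak lists give no read depth, and 17 XPC lists ended at the same number of peaks, so that weak XPC peaks below that limit were not seen.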
